A study of Homo sapiens with 12 samples.

Results

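The genes described here are 10 noncoding hosts of small nucleolar RNAs (snoRNAs), *GAS5*, *SNHG1*, *SNHG5*, *SNHG6*, *SNHG7*, *SNHG8*, *SNHG12*, *SNHG15*, *ZFAS1* and *EPB41L4A-AS1*, chosen by symbol from the 23533 genes listed for either of the cell lines MEC1 and JVM2. All 10 were listed for both lines and all 10 passed the filter on low counts in both. The symbol *SNHG7* stands on a second identifier, ENSG00000280325, an unconfirmed transcript on chromosome 7, so 11 rows carried the 10 symbols. That row held 495 to 598 counts in MEC1 and 16 to 22 in JVM2, did not pass the test in either line and was left out.

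MEC1 and JVM2 were both grown out from human B-cell neoplasms and are in common use as cell lines. The study set cells with high expression of UGT2B17, an enzyme that attaches glucuronic acid to steroids and other lipids, against control cells. MEC1-2B17 and JVM2-2B17 cells stably expressed human UGT2B17 from the pcDNA6 vector under blasticidin, JVM2-CTRL cells carried that vector empty, also under blasticidin, and MEC1-CTRL cells carried an shRNA against *UGT2B17* under puromycin. The MEC1 groups therefore differed in construct, in antibiotic and in the knock-down itself, and these cannot be told apart. The study describes no repeated selection of any group, so changes from selection cannot be told apart from UGT2B17 in either line. Each group had 3 biological replicates, 12 libraries in all, sequenced after depletion of ribosomal RNA.

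A snoRNA host gene is transcribed as a spliced RNA whose introns carry the snoRNAs. The snoRNAs are trimmed from the introns and guide the chemical modification of ribosomal RNA, while the spliced host RNA is exported, is often bound by ribosomes at short reading frames, and is degraded through nonsense-mediated decay when translation proceeds. Many hosts begin, as ribosomal protein and translation factor genes do, with a terminal oligopyrimidine (TOP) tract, a C followed by further C or T bases at the very start of the transcript, through which mTOR signaling and the RNA-binding protein LARP1 control translation and stability of the RNA. *GAS5* was named for its accumulation in growth-arrested cells.

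The starts of 6 host genes are printed, 3 that rose in both lines (*ZFAS1*, *GAS5* and *EPB41L4A-AS1*) and 3 that did not (*SNHG5*, *SNHG12* and *SNHG8*), as the 50 bases before and the 50 bases from the start that RefSeq gives on GRCh38.p14, on the strand of the gene. Capitals mark the first C followed by at least 4 pyrimidines that begins within 10 bases of that start or, where there is none, the first downstream of it.
ZFAS1: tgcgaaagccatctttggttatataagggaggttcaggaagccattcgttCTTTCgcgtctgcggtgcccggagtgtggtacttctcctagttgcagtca
GAS5: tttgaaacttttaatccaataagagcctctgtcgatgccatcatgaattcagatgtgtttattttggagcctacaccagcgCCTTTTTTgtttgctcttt
EPB41L4A-AS1: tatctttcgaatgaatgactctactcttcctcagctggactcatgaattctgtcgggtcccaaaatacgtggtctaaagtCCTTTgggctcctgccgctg
SNHG5: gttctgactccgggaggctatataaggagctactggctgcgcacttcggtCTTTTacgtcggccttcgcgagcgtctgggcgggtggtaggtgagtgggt
SNHG12: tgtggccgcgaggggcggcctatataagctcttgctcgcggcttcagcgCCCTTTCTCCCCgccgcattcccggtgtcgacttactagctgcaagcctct
SNHG8: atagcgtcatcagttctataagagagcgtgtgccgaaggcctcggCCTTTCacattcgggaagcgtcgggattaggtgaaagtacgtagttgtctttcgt

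The windows lie at chr20:49278592-49278691 for *ZFAS1* (plus strand), chr1:173868996-173869095 for *GAS5* (minus), chr5:112160476-112160575 for *EPB41L4A-AS1* (plus), chr6:85678684-85678783 for *SNHG5* (minus), chr1:28581824-28581923 for *SNHG12* (minus) and chr4:118278712-118278811 for *SNHG8* (plus). The tract began at the first base of *ZFAS1* and *SNHG5*, 1 base before that of *SNHG12* and 5 bases before that of *SNHG8*. In *GAS5* and *EPB41L4A-AS1* it began only at bases 32 and 31. Of the 8 hosts with a RefSeq window, 5 held a tract within 10 bases of the start, the fifth being *SNHG7*, and *SNHG1* held none near or downstream of its start. The same search on the strand of the gene found such a tract in 32.5% of all 35116 RefSeq promoters, in 55 of the 63 matched ribosomal protein genes (87.3%) and in 10 of 12 matched TOP translation factors. Among matched noncoding snoRNA hosts outside the 10, the search found a tract in 9 of 12 (75%). RefSeq gives 1 start per gene, and that of *GAS5*, base 173869045 of chromosome 1, lies upstream of the GENCODE v44 gene, which begins on that strand at base 173868882, so a tract at another start was not seen. *SNHG6* and *SNHG15* were not matched.

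In GENCODE v44 on GRCh38 all 10 are annotated as long noncoding RNA genes, *GAS5* (ENSG00000234741) at chr1:173858559-173868882, *SNHG1* (ENSG00000255717) at chr11:62851978-62855953, *SNHG5* (ENSG00000203875) at chr6:85650491-85678932, *SNHG6* (ENSG00000245910) at chr8:66920561-66926398, *SNHG7* (ENSG00000233016) at chr9:136721366-136728184, *SNHG8* (ENSG00000269893) at chr4:118278703-118285316, *SNHG12* (ENSG00000197989) at chr1:28578538-28583132, *SNHG15* (ENSG00000232956) at chr7:44983019-44986961, *ZFAS1* (ENSG00000177410) at chr20:49278178-49299600 and *EPB41L4A-AS1* (ENSG00000224032) at chr5:112160526-112164818. *SNHG8*, *ZFAS1* and *EPB41L4A-AS1* lie on the plus strand and the others on the minus strand. Only *GAS5* and *SNHG12* share a chromosome, so the hosts stand at separate loci.

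Libraries held 31762649 to 37744991 counts in MEC1 and 8809179 to 11231330 in JVM2. *UGT2B17* rose from 11.0 to 21.1 counts per 1000000 (CPM) in MEC1 and from 27.8 to 38.7 in JVM2. The 6 B-cell markers examined stood between 57.1 and 911 CPM in every group, and the 3 T-cell and 3 myeloid markers at 0.972 CPM or lower where listed. MEC1-CTRL replicate 3 and JVM2-2B17 replicate 2 stood farther from their group than other replicates did, at 6.77 to 8.58 times counting error per gene against 2.24 to 5.34 for all other pairs. JVM2-2B17 replicate 2 was the highest of its group for 8 of the 10 hosts, and values of named genes are also given without that library, or without MEC1-CTRL replicate 3, where the call changes or a called value moves by over 1.5 times.

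In MEC1, 7 of the 10 hosts were higher in 2B17 cells, led by *GAS5*, *EPB41L4A-AS1* and *ZFAS1*, and none was lower. In JVM2, 4 were higher, *ZFAS1*, *GAS5*, *EPB41L4A-AS1* and *SNHG6*, and none was lower. These 4 were higher in both lines, by 22.8% to 37.5% in MEC1 and 29.7% to 35.3% in JVM2. *SNHG7*, *SNHG8* and *SNHG15* did not pass the test in either line. The test was edgeR's quasi-likelihood F-test of 2B17 against CTRL, with *P* adjusted over all genes of the line and a threshold of 0.05. Of the 16581 genes tested in MEC1, 20.0% were higher and 21.6% lower by that rule. The shares in JVM2, out of 13021 genes, were 14.1% higher and 15.3% lower. Among the 12243 genes tested in both lines, 3.90% were higher in both. The log2 fold change of 2B17 over CTRL cells, called log2 change from here on, had a median over the hosts of 0.24 in MEC1 and 0.17 in JVM2, beside 0.0026 and 1e-04 for all genes tested. In MEC1, the replicates of the 2B17 and CTRL cells did not overlap for 6 hosts that were higher and 1 that was lower, where 24.3% of all genes were higher and 25.9% lower without overlap. In JVM2 the replicates of 5 hosts were all higher in 2B17 cells and those of none all lower, against 21.6% and 23.6% of all genes. Counts of the hosts ran from 1452 to 13658 per library in MEC1 and from 112 to 1820 in JVM2, and the standard errors (SE) of their log2 fold changes from 0.032 to 0.060 and from 0.065 to 0.11, so that smaller changes could be detected in MEC1. In these bulk cultures, more RNA per cell and more cells with the RNA cannot be told apart.

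**Figure D1:**
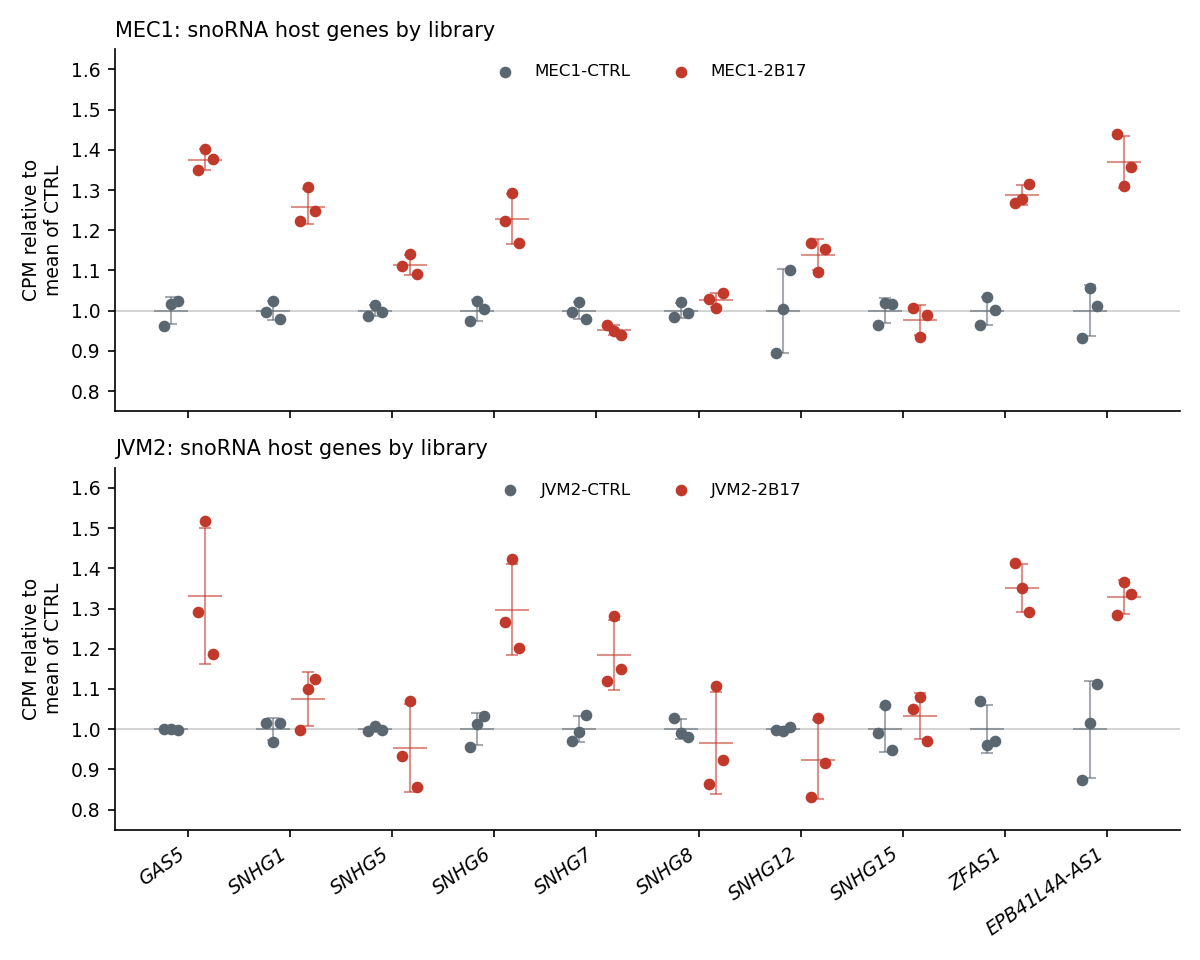
CPM of each snoRNA host gene in each library, divided by the mean of the CTRL libraries of its line. Points are libraries in replicate order, horizontal bars and whiskers the mean ± SD of 3 replicates. GAS5, SNHG6, ZFAS1 and EPB41L4A-AS1 lie above all CTRL libraries in both lines, and JVM2-2B17 replicate 2 is the highest of its group for 8 of 10 genes.

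*GAS5* is the host of a cluster of box C/D snoRNAs, which guide methylation, and its spliced RNA is a long-studied TOP transcript. Its CPM in replicates 1 to 3 was 287, 303 and 306 in MEC1-CTRL and 402, 418 and 411 in MEC1-2B17 cells. All MEC1-2B17 values lay above all MEC1-CTRL values, and the log2 fold change was 0.46 (SE 0.036, adjusted *P* = 4.54e-09). In JVM2 it was at 127.9, 127.6 and 127.5 CPM in CTRL and 165, 194 and 152 in 2B17 cells. These groups did not overlap either, with a log2 change of 0.41 (SE 0.081, adjusted *P* = 0.00207), and 0.31 to 0.49 with any 1 JVM2 library left out. *GAS5* supplied 37.6% of the difference in the summed CPM of the 10 hosts in MEC1 and 46.5% in JVM2.

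*ZFAS1*, antisense to the start of *ZNFX1*, hosts the *SNORD12* group of box C/D snoRNAs. It stood at 135, 145 and 141 CPM in MEC1-CTRL and 178, 179 and 184 in MEC1-2B17 cells. In JVM2 its CPM was 82.8, 74.3 and 75.2 in CTRL and 109, 105 and 100.1 in 2B17 cells. The replicates were separate in both lines, and the log2 fold changes were 0.36 for MEC1 (SE 0.036, adjusted *P* = 1.39e-07) against 0.44 for JVM2 (SE 0.065, adjusted *P* = 0.000304), the latter being the largest among the hosts of that line.

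*SNHG6* hosts *SNORD87*. Its CPM was 99.1, 104 and 102 in MEC1-CTRL and 125, 132 and 119 in MEC1-2B17 cells. JVM2 libraries had 50.3, 53.3 and 54.3 in CTRL and 66.7, 74.9 and 63.2 in 2B17 cells. It was higher in every 2B17 library of both lines, by 0.30 on the log2 scale for MEC1 (SE 0.038, adjusted *P* = 3.65e-06) and by 0.37 for JVM2 (SE 0.075, adjusted *P* = 0.00258). The 35 tested genes within 5 Mb of *SNHG6* in MEC1 had a median log2 change of 0.16, and the 29 in JVM2 of 0.04. Their part in the values of *SNHG6* was not tested.

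*EPB41L4A-AS1*, the host of the box H/ACA snoRNA *SNORA13*, had the fewest counts of the 10 in JVM2. Its CPM was 44.3, 50.2 and 48.1 in MEC1-CTRL and 68.5, 62.3 and 64.5 in MEC1-2B17 cells. In JVM2 it was 11.2, 13.0 and 14.2 in CTRL and 16.4, 17.4 and 17.1 in 2B17 cells, from 112 to 181 counts per library. The groups did not overlap in either line, and the log2 change was 0.46 for MEC1 (SE 0.050, adjusted *P* = 5.34e-07). For JVM2 it was 0.41 (SE 0.11, adjusted *P* = 0.0156), a call that was lost in DESeq2 (0.41, adjusted *P* = 0.0558) and without JVM2-CTRL replicate 1 (0.32, edgeR adjusted *P* = 0.0681).

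*SNHG1*, *SNHG5* and *SNHG12* passed the test in MEC1 and not in JVM2. *SNHG1*, which hosts a cluster of box C/D snoRNAs, stood at 308, 317 and 303 CPM in MEC1-CTRL and 377, 404 and 385 in MEC1-2B17 cells. Its MEC1 groups were separate, with a log2 change of 0.33 (SE 0.036, adjusted *P* = 4.46e-07). JVM2 showed it at 69.8, 66.7 and 69.9 CPM in CTRL and 68.7, 75.7 and 77.5 in 2B17 cells, groups that overlapped, with a log2 change of 0.10 (SE 0.066, adjusted *P* = 0.276).

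*SNHG5*, host of the *SNORD50* snoRNAs, had 196, 202 and 198 CPM in MEC1-CTRL and 221, 227 and 217 in MEC1-2B17 cells. The change was small and the groups did not overlap, at 0.16 on the log2 scale (SE 0.035, adjusted *P* = 0.00123). In JVM2 it was at 78.8, 79.7 and 78.8 CPM in CTRL and 73.8, 84.7 and 67.7 in 2B17 cells, where replicate 2 lay above and the other 2 below every CTRL value. The log2 fold change there was -0.07 (SE 0.078, adjusted *P* = 0.535), and -0.16 without JVM2-2B17 replicate 2 (adjusted *P* = 0.035).

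*SNHG12*, a host of H/ACA and C/D snoRNAs, had 38.2, 42.9 and 47.1 CPM in MEC1-CTRL and 49.9, 46.8 and 49.2 in MEC1-2B17 cells. It was the only one of the 7 called hosts whose groups overlapped, with a log2 change of 0.19 (SE 0.060, adjusted *P* = 0.0159). The call was lost without MEC1-CTRL replicate 1 (0.11, adjusted *P* = 0.113), without MEC1-2B17 replicate 1 (0.17, adjusted *P* = 0.0546) or without MEC1-2B17 replicate 3 (0.19, adjusted *P* = 0.0522). In JVM2 it was at 22.3, 22.3 and 22.5 CPM in CTRL and 18.6, 23.0 and 20.5 in 2B17 cells, a log2 change of -0.12 (SE 0.098, adjusted *P* = 0.396), and -0.20 without JVM2-2B17 replicate 2 (adjusted *P* = 0.128).

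*SNHG7*, a host of H/ACA snoRNAs, went in opposite directions in the lines without passing the test in either. Its CPM was 95.3, 97.7 and 93.6 in MEC1-CTRL and 92.2, 90.8 and 89.8 in MEC1-2B17 cells, all below the controls, a log2 change of -0.07 (SE 0.034, adjusted *P* = 0.0994). In JVM2 it was 15.9, 16.3 and 16.98 in CTRL and 18.4, 21.1 and 18.9 in 2B17 cells, all above the controls, a log2 change of 0.24 (SE 0.097, adjusted *P* = 0.0797). In MEC1, the 107 tested genes within 5 Mb of *SNHG7* had a median log2 fold change of -0.37, whereas around the other 9 hosts the median ranged from -0.07 to 0.16. The 83 tested around *SNHG7* in JVM2 had a median of 0.02, and the part of these neighborhoods in the values of *SNHG7* was not tested.

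*SNHG8*, host of *SNORA24*, ranged from 129 to 134 CPM in MEC1-CTRL and from 132 to 137 in MEC1-2B17 cells, and from 63.7 to 66.9 and 56.1 to 71.9 in the JVM2 groups, which overlapped in both lines. Its log2 change was 0.04 in MEC1 (SE 0.032, adjusted *P* = 0.382). It was -0.06 with all libraries of JVM2 (SE 0.086, adjusted *P* = 0.674) and -0.16 without JVM2-2B17 replicate 2 (adjusted *P* = 0.0393). *SNHG15*, host of *SNORA9*, ranged from 112 to 119 CPM in MEC1-CTRL and from 109 to 118 in MEC1-2B17 cells, and from 37.99 to 42.4 and 38.8 to 43.2 in JVM2. Its groups overlapped as well, and its log2 change was -0.03 for MEC1 (SE 0.036, adjusted *P* = 0.512) against 0.05 for JVM2 (SE 0.077, adjusted *P* = 0.69).

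A host may change by a different amount in each line, which the interaction of line and construct tested in 1 fit of all 12 libraries. *SNHG1* was raised more in MEC1, by 0.23 on the log2 scale (SE 0.076, adjusted *P* = 0.0227), as was *SNHG5*, by 0.23 (SE 0.087, adjusted *P* = 0.0482). For *SNHG7* the change in MEC1 minus that in JVM2 was -0.31 (SE 0.091, adjusted *P* = 0.0125). The 2 hosts with a larger value in MEC1 stand beside 15.3% of the 15130 genes in that test, and the 1 with a smaller value beside 16.7%, shares too near those of the hosts to set them apart. *SNHG12* differed by 0.31 (SE 0.12, adjusted *P* = 0.0543). Without JVM2-2B17 replicate 2, *SNHG12* passed this test (0.40, adjusted *P* = 0.0109), as did *SNHG8* (0.21, adjusted *P* = 0.0174). For *GAS5*, *SNHG6*, *ZFAS1* and *EPB41L4A-AS1*, the 4 hosts higher in both lines, the difference ranged from -0.07 to 0.05, with SE from 0.077 to 0.12 and adjusted *P* from 0.537 to 0.793. The *SNHG5* call was lost in 15 of 19 other settings, with a difference of 0.15 to 0.33 and an adjusted *P* of 0.000598 to 0.154 when 1 library was left out, the lowest without JVM2-2B17 replicate 2 and the highest without JVM2-2B17 replicate 3. That of *SNHG1* was lost without any of 4 libraries, MEC1-2B17 replicate 2, JVM2-CTRL replicates 1 and 3 and JVM2-2B17 replicate 1, with adjusted *P* of up to 0.0974.

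The question put to these genes was whether they rise with the ribosomal protein genes, the products that make up the ribosome's protein part and the best known TOP transcripts. In MEC1 55 of the 79 cytosolic ribosomal protein genes were higher and 3 lower, at a median of 0.12 on the log2 scale. In JVM2 76 were higher and none lower, with a median of 0.43. The medians of the hosts, 0.24 and 0.17, had the opposite order. In MEC1 5 of the 10 hosts, *GAS5*, *EPB41L4A-AS1*, *ZFAS1*, *SNHG1* and *SNHG6*, each had a log2 fold change above that of all 79, whose highest was *RPS12* at 0.27 (adjusted *P* = 2.69e-06). At the other end *SNHG7* lay above 3 of the 79, *SNHG15* above 4 and *SNHG8* above 10. In JVM2, *ZFAS1* lay above 46 of the 79 ribosomal protein genes, *GAS5* above 38, *EPB41L4A-AS1* above 36 and *SNHG6* above 27, that is, from 0.05 below their median to 0.01 above it. *SNHG1*, *SNHG5*, *SNHG8*, *SNHG12* and *SNHG15* lay below every ribosomal protein gene of that line, the lowest of which was *RPL28* at 0.12 (adjusted *P* = 0.624). Without JVM2-2B17 replicate 2, *RPL28* stood at 0.36 (adjusted *P* = 2.07e-06) and *RPL17* was the lowest at -0.03 (adjusted *P* = 0.754). *SNHG5*, *SNHG8* and *SNHG12* then lay below all 79, *SNHG1*, *SNHG7* and *SNHG15* above 1, *SNHG6* above 12, *GAS5* above 13, *EPB41L4A-AS1* above 38 and *ZFAS1* above 55. No test of the difference between hosts and ribosomal protein genes was made. Genes within 5 Mb were examined around the hosts only, not around ribosomal protein genes or other listed genes. Whether any ribosomal protein gene or other listed gene lies within 5 Mb of a host, as of *SNHG7*, was not examined. The largest rise in JVM2 was that of *RPS18*, at 0.76 (adjusted *P* = 6.41e-06), and the falls in MEC1 were those of *RPL35* at -0.34 (adjusted *P* = 3.35e-08), *RPL7A* at -0.25 (adjusted *P* = 7.97e-08) and *RPL17* at -0.12 (adjusted *P* = 0.0424, or adjusted *P* = 0.184 without MEC1-CTRL replicate 3). When a call needed edgeR's exact test and DESeq2 together, 34 ribosomal protein genes were higher in MEC1 in place of 55, and 7 of the hosts as before.

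**Figure D2:**
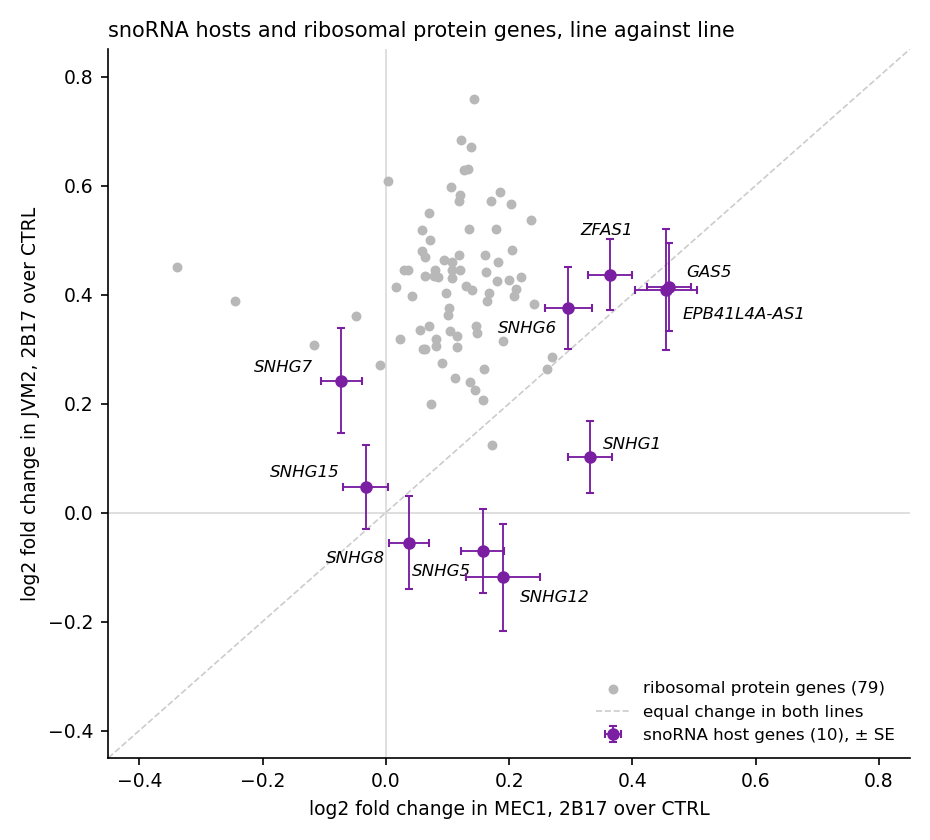
Log2 fold change of 2B17 over CTRL cells in MEC1 (horizontal) and JVM2 (vertical) for the 10 snoRNA host genes, with SE, and the 79 ribosomal protein genes without. Ribosomal protein genes gather at a median of 0.12 in MEC1 and 0.43 in JVM2, 5 hosts lie to the right of all of them and 5 below all of them, SNHG1 being in both sets.

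The sums per library show the same contrast. The 10 hosts together had 1444, 1514 and 1486 CPM in MEC1-CTRL and 1766, 1800 and 1771 in MEC1-2B17 cells. In JVM2 they had 566, 560.1 and 561 in CTRL and 635, 710.3 and 616 in 2B17 cells, so all 2B17 sums were above all CTRL sums of the line. Per 1000 CPM of ribosomal protein genes, the hosts went from 17.4 ± 0.295 (SD, n = 3) in MEC1-CTRL to 19.2 ± 0.160 in MEC1-2B17 cells, and from 7.69 ± 0.215 in JVM2-CTRL to 6.66 ± 0.463 in JVM2-2B17 cells. This ratio was higher in every MEC1-2B17 library and lower in every JVM2-2B17 library than in any control of the line. The lines were counted in separate tables, and the levels of MEC1 and JVM2 were not tested against each other.

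**Figure D3:**
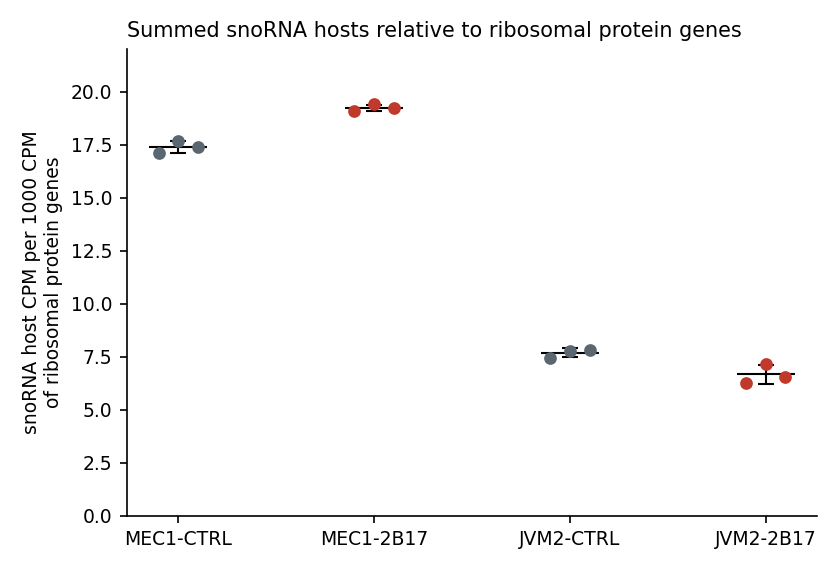
Summed CPM of the 10 snoRNA host genes per 1000 CPM of the 79 ribosomal protein genes, by group. Points are libraries, bars and whiskers the mean ± SD of 3 replicates. The MEC1-2B17 libraries, at 19.1 to 19.4, lie above the MEC1-CTRL libraries, and the JVM2-2B17 libraries, at 6.27 to 7.17, below the JVM2-CTRL libraries.

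Of the 17 tested translation factors and other genes listed as known TOP transcripts, 15 were higher in MEC1 at a median of 0.17 on the log2 scale, and 12 in JVM2 at a median of 0.33, with 10 higher in both and none lower. In MEC1 the largest rise was that of *EIF4B*, which aids the helicase that unwinds mRNA leaders (0.40, adjusted *P* = 5.89e-09), and the smallest past the threshold that of *BTF3* (0.09, adjusted *P* = 0.0404). In JVM2 the largest and smallest past the threshold were those of *EIF3E*, a subunit of the initiation factor that holds the small ribosomal subunit (0.47, adjusted *P* = 8.46e-05), and *NAP1L1* (0.20, adjusted *P* = 0.0247). *EEF1G* had 0.211 CPM or less in every group and was below the filter. For it, low expression and reads lost in the counting cannot be told apart.

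Other noncoding hosts moved in both directions. Of 12 tested, 5 were higher and 3 lower in MEC1, and 4 higher and 2 lower in JVM2. Of all genes, 20.0% were higher and 21.6% lower in MEC1, and 14.1% and 15.3% in JVM2. The counts of lower hosts are too near these shares to set the list apart. *SNHG32* was the highest in each line, at 0.50 (adjusted *P* = 3.68e-09) and 0.56 (adjusted *P* = 0.000296), and *SNHG16* (0.23, adjusted *P* = 4.73e-05; 0.16, adjusted *P* = 0.0372) and *SNHG29* (0.11, adjusted *P* = 0.012; 0.34, adjusted *P* = 0.000329) were also higher in both. *SNHG17* was higher in MEC1 (0.27, adjusted *P* = 0.000309) and lower in JVM2 (-0.40, adjusted *P* = 0.0393). *SNHG14* was higher in MEC1 (0.49, adjusted *P* = 3.3e-07) and *SNHG20* in JVM2 (0.34, adjusted *P* = 0.0499, or adjusted *P* = 0.0503 without JVM2-2B17 replicate 2). *SNHG9* (-0.36, adjusted *P* = 0.00101), *SNHG10* (-0.24, adjusted *P* = 0.0129) and *DANCR* (-0.11, adjusted *P* = 0.0152) were lower in MEC1, and *SNHG3* in JVM2 (-0.23, adjusted *P* = 0.0346). Without MEC1-CTRL replicate 3 the calls of *SNHG10* (-0.17, adjusted *P* = 0.0734) and *DANCR* (-0.09, adjusted *P* = 0.0614) were lost, and without JVM2-2B17 replicate 2 *DANCR* was higher in JVM2 (0.18, adjusted *P* = 0.0409). *SNHG11* and *SNHG19* passed the test in neither line. In JVM2, the call rule of both tools left 2 of these genes higher and none lower.

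Of the protein-coding hosts, 8 of 12 were higher and 1 lower in MEC1, beside 20.0% and 21.6% of all genes, with a median of 0.14 on the log2 scale. In JVM2 1 was higher and 3 lower, with a median of -0.01, beside 14.1% and 15.3% of all genes, and the difference between lines was not tested for this list. *EIF4A2*, a helicase of translation initiation, was the highest in MEC1 (0.40, adjusted *P* = 8.8e-08) and *SLC25A3*, the mitochondrial phosphate carrier, was higher in both (0.13, adjusted *P* = 0.0022; 0.19, adjusted *P* = 0.0206). *EIF4G2* was lower in both (-0.18, adjusted *P* = 0.000155; -0.18, adjusted *P* = 0.0231). *NCL*, which encodes nucleolin, was higher in MEC1 (0.11, adjusted *P* = 0.005) and lower in JVM2 (-0.21, adjusted *P* = 0.041, and -0.12, adjusted *P* = 0.0254, without JVM2-2B17 replicate 2), and the chaperone gene *HSPA8* was the lowest in JVM2 (-0.36, adjusted *P* = 0.000144). In MEC1 *HSPA8* did not pass the test (0.18, adjusted *P* = 0.105), but did without MEC1-CTRL replicate 3 (0.37, adjusted *P* = 4.23e-07). Under the call rule of both tools 1 protein-coding host was lower in JVM2 in place of 3, and without JVM2-2B17 replicate 2 there were 5, *RCC1* (-0.15, adjusted *P* = 0.0395) and *NOP56* (-0.19, adjusted *P* = 0.00582) being added.

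**Figure D4:**
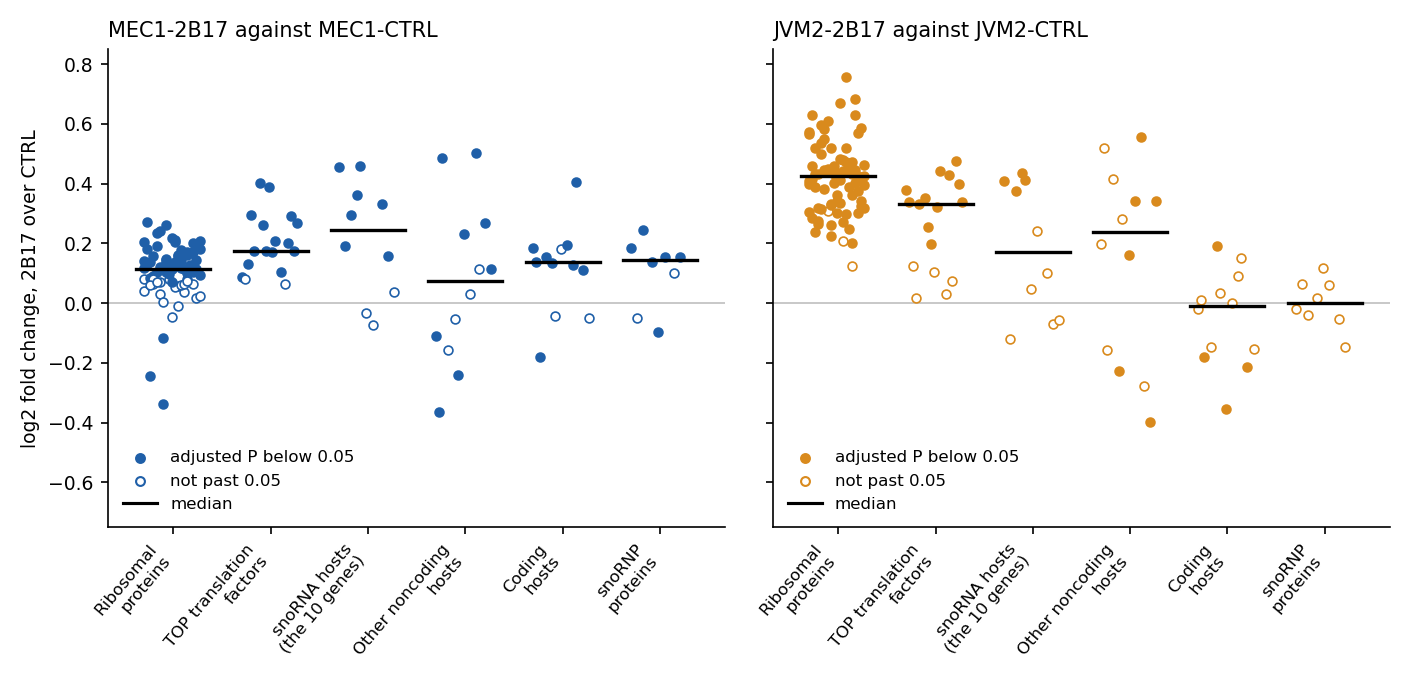
Log2 fold change of 2B17 over CTRL cells for each tested gene of 6 gene groups in MEC1 (left) and JVM2 (right). Filled points passed an adjusted P of 0.05, open points did not, and black lines are group medians, which for the 10 snoRNA hosts were 0.24 and 0.17 and for the ribosomal protein genes 0.12 and 0.43.

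Of the proteins that assemble on snoRNAs, in MEC1 5 of the 8 genes were higher, *NOP58* most (0.24, adjusted *P* = 3.1e-05), together with *DKC1*, the pseudouridine synthase (0.18, adjusted *P* = 0.000252), *SNU13* (0.15, adjusted *P* = 0.00116), *NOP56* (0.15, adjusted *P* = 0.00335) and *FBL*, the methyltransferase fibrillarin (0.14, adjusted *P* = 0.0049), and *NOP10* was lower (-0.10, adjusted *P* = 0.0257, or adjusted *P* = 0.11 without MEC1-CTRL replicate 3). In JVM2 none of the 8 passed edgeR's test or DESeq2's, with log2 fold changes from -0.15 to 0.12, though *NOP56* was lower without JVM2-2B17 replicate 2, at the value above. *NOP56* and *DKC1* are also among the protein-coding hosts above. Of all genes, 20.0% were higher and 21.6% lower in MEC1, and 14.1% and 15.3% in JVM2.

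Factors of nonsense-mediated decay, the pathway that degrades many spliced host RNAs, showed no common direction. Of all genes, 20.0% were higher and 21.6% lower in MEC1, and 14.1% and 15.3% in JVM2. The calls among these factors are too near those shares to set the list apart. In MEC1, the kinase gene *SMG1* was higher (0.17, adjusted *P* = 0.000733) and *UPF3A* (-0.36, adjusted *P* = 9.99e-07), *SMG9* (-0.22, adjusted *P* = 0.00123) and *SMG5* (-0.09, adjusted *P* = 0.0496) were lower among 10 genes. In JVM2 *UPF3A* was higher (0.32, adjusted *P* = 0.013) and *SMG5* was lower (-0.22, adjusted *P* = 0.0171). *UPF1*, the central helicase, had log2 changes of 0.08 (adjusted *P* = 0.0909) and -0.10 (adjusted *P* = 0.189).

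Of 14 regulators of TOP transcripts and of ribosome synthesis, 7 were higher and 1 lower in MEC1, and 2 were higher and 3 lower in JVM2, beside 20.0% and 21.6% of all genes in MEC1 and 14.1% and 15.3% in JVM2. *MYC*, a transcription factor that drives ribosome synthesis, was the highest in MEC1 (0.50, adjusted *P* = 2.02e-09), beside *TSC2* (0.34, adjusted *P* = 1.1e-05) and *EIF4EBP1* (0.33, adjusted *P* = 6.48e-05), while *TSC1* was lower (-0.31, adjusted *P* = 7.28e-06). In JVM2, *MTOR*, the kinase itself, was lower (-0.46, adjusted *P* = 9.3e-05), as was *LARP1* (-0.40, adjusted *P* = 0.0378), at 255.5, 162.2 and 253.2 CPM in JVM2-2B17 cells. Without JVM2-2B17 replicate 2 the value of *LARP1* was -0.21 (adjusted *P* = 0.00137), and in MEC1 it was higher (0.08, adjusted *P* = 0.0443). *MYC* (0.25, adjusted *P* = 0.000693) and *RPS6KB1* (-0.19, adjusted *P* = 0.0484) passed the test in JVM2 without that library but not with all 6. *LARP4* was likewise higher in MEC1 (0.18, adjusted *P* = 0.00445) and lower in JVM2 (-0.21, adjusted *P* = 0.0183). *CNBP*, which binds TOP tracts, was higher in JVM2 (0.26, adjusted *P* = 0.00757), and *RHEB*, the activator of mTOR, in both lines (0.12, adjusted *P* = 0.0381; 0.26, adjusted *P* = 0.0154). The call rule of both tools left 1 of these genes higher and 1 lower in JVM2.

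Per kilobase of the canonical GENCODE v44 transcript, *GAS5* was the most abundant host in all 4 groups, at 389 ± 13.3 CPM per kilobase in MEC1-CTRL, 534 ± 10.4 in MEC1-2B17, 166 ± 0.271 in JVM2-CTRL and 221 ± 28.1 in JVM2-2B17 cells (SD, n = 3). *EPB41L4A-AS1* was the lowest on this length, at 13.5 ± 0.853, 18.5 ± 0.887, 3.64 ± 0.438 and 4.84 ± 0.150 in the same order. In MEC1-CTRL cells *GAS5* was followed by *SNHG1* (266), *SNHG5* (151), *SNHG6* (55.9), *SNHG7* (40.5), *SNHG15* (38.9), *ZFAS1* (31.0), *SNHG12* (22.8) and *SNHG8* (21.2), and only the replicates of *SNHG12* and *SNHG8* overlapped between neighbors. In JVM2-CTRL cells the order was *SNHG5* (60.1), *SNHG1* (59.2), *SNHG6* (28.9), *ZFAS1* (17.1), *SNHG15* (13.4), *SNHG12* (11.96), *SNHG8* (10.5) and *SNHG7* (6.96), and those of *SNHG5* and *SNHG1* overlapped. The order depends on the transcript length, since over the union of exons *SNHG1* came before *GAS5* in both MEC1 groups, *SNHG5* fell to place 8 in MEC1 and *SNHG12* was the lowest there.

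Several hosts overlap genes of the opposite strand, and since the strand setting of the counting is not given in the sources used here, shared reads cannot be assigned. *SNHG6* shares 58.9% of its exon bases with *MCMDC2*, *EPB41L4A-AS1* 51.2% with *EPB41L4A*, *SNHG8* 37.6% with *PRSS12* and *SNHG7* 30.3% with *DIPK1B*. These partners were low, at 0.166 CPM or less for *MCMDC2*, 0.438 for *EPB41L4A*, 1.72 for *PRSS12* and 3.41 for *DIPK1B* in any group, against 12.8 CPM or more for the hosts. *DIPK1B*, opposite *SNHG7*, was lower in MEC1 (-0.73, adjusted *P* = 0.00188) and higher in JVM2 (2.77, adjusted *P* = 0.000124), the directions of *SNHG7* itself. From CTRL to 2B17 cells, the mean CPM of *DIPK1B* went from 2.24 to 1.35 in MEC1 and from 0.492 to 3.41 in JVM2. That of *SNHG7* went from 95.5 to 90.9 in MEC1 and from 16.4 to 19.45 in JVM2. The part of *DIPK1B* in the *SNHG7* values was not tested. *GAS5* shares 2.68% of its exon bases with *GAS5-AS1*, at 0.52 CPM or less.

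Genes that start head to head with a host did not rise with it. *ZNFX1*, which starts 248 bases from *ZFAS1*, was lower in both lines (-0.25, adjusted *P* = 1.99e-05; -0.43, adjusted *P* = 0.000589), where *ZFAS1* was higher in both. *SLC3A2*, whose start lies 51 bases from that of *SNHG1*, had -0.07 on the log2 scale in MEC1 (adjusted *P* = 0.221, and -0.11, adjusted *P* = 0.0358, without MEC1-CTRL replicate 3) and was lower in JVM2 (-0.47, adjusted *P* = 0.000155). *ZBTB37*, 800 bases from *GAS5*, had -0.08 (adjusted *P* = 0.321) and 0.08 (adjusted *P* = 0.629).

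The annotation places 24 snoRNA genes inside 9 of the hosts, and 5 of them were tested in MEC1 and 2 in JVM2. *SNORD12C*, inside *ZFAS1*, had 78, 83 and 115 counts in MEC1-CTRL and 133, 110 and 105 in MEC1-2B17 cells, groups that overlapped, with a log2 change of 0.44 (adjusted *P* = 0.0365). Without MEC1-CTRL replicate 3 its log2 change in MEC1 was 0.67 (adjusted *P* = 0.00152). In JVM2 *SNORD12C* had 10 to 21 counts and a log2 change of -0.36 (adjusted *P* = 0.418). *SNORD12B*, *SNORD30*, *SNORD99* and *SNORA13* did not pass the test in MEC1 (0.25, 0.10, 0.22 and 0.18, adjusted *P* from 0.0656 to 0.851), nor did *SNORD12B* in JVM2 (0.12, adjusted *P* = 0.772). Counts of such short RNAs were low, from 7 to 190 per library in MEC1, and the other 19, with the snoRNAs of *GAS5*, are not analysed here.

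Over the 12 libraries, with log2 CPM centered on the mean of each line, the genes most like the mean profile of the hosts among 10937 compared were *BTG1* (Pearson's r = 0.968), *ATL2* (0.966), *ZFAND1* (0.965), *LRRC49* (0.964) and *NBPF15* (0.956). *BTG1*, an antiproliferative gene, was higher in both lines (0.36, adjusted *P* = 2.2e-07; 0.33, adjusted *P* = 0.0171), at 0.19 in JVM2 without JVM2-2B17 replicate 2 (adjusted *P* = 0.00322). *LRRC49* had the largest rises of the 5, at 0.71 (adjusted *P* = 1.27e-06) and 0.80 (adjusted *P* = 7e-04), *ZFAND1* and *NBPF15* were also higher in both, and *ATL2* was higher in MEC1 (0.28, adjusted *P* = 7.3e-06) with 0.22 in JVM2 (adjusted *P* = 0.0664). Against the mean of the other 9 hosts, *GAS5* had r = 0.974, *SNHG6* 0.93, *EPB41L4A-AS1* 0.864, *ZFAS1* 0.822, *SNHG1* 0.781, *SNHG5* 0.457, *SNHG7* 0.391, *SNHG12* 0.344, *SNHG8* 0.227 and *SNHG15* 0.164. These points share libraries, depth and the difference between 2B17 and CTRL cells. They include JVM2-2B17 replicate 2, the highest of its group for 8 of the 10 hosts. Without that library the log2 change in JVM2 was 0.61 for *LRRC49*, 0.25 for *ZFAND1*, 0.38 for *NBPF15* and 0.13 for *ATL2*. The correlations were not computed without it.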

How the data were processed

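The authors deposited, line by line, a raw read count for every listed Ensembl gene in 6 libraries, 3 per group. The authors' processing notes name Trimmomatic, TopHat2 2.0.14, HTSeq and hg38, and the study's methods the MUGQIC pipeline. The annotation, the strand setting and the sequencing site of each library are not given in the sources used here. The 12 per-sample columns of rounded normalized values and the authors' fold changes, mean levels and *P*-values were not used.

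Every listed gene held at least 10 counts over its line. Counts were fitted line by line with edgeR 4.0.16 in R 4.3.3 (TMM scaling, filterByExpr at 10 counts and a total of at least 15, quasi-likelihood F-test), with *P* adjusted by Benjamini and Hochberg over all genes tested. CPM are counts per 1000000 counts of the TMM-scaled library size. The interaction of line and construct was fitted over genes in both tables. The fits were tested on simulated data. There, changes of 1.2 times were recovered for 73.1% of changed genes in MEC1 and 13.4% in JVM2. For changes of 1.5 times the shares were 95.5% and 70.1%. A small change called in MEC1 could therefore be missed in JVM2. DESeq2 1.42.0 was among the alternatives. Positions and lengths came from GENCODE v44 and start sequences from RefSeq. Replicates were biological, so *P* covers the spread between cultures. It does not cover the spread between separately selected cell lines of a group, which the study does not describe. JVM2 libraries were shallower and also varied more between replicates (common biological coefficient of variation 6.92% against 4.22% in MEC1). Log2 fold changes are 2B17 over CTRL.

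The 10 genes and the gene lists were chosen with earlier results of these data known. Genes were named by a rule: the 10 hosts and *UGT2B17*, the highest and lowest called gene of each list per line, all genes of lists of 14 or fewer where described, head-to-head and overlapping genes, and the 5 genes most like the hosts' mean profile (average log2 CPM of at least 1, prior count 2). Some genes that this rule covers are not reported here.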

Additional observations from a re-analysis of the deposited data

Results flagged for a closer look

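The change of 3 hosts differed between MEC1 and JVM2 in edgeR's interaction test over all 12 libraries, beside 15.3% of all genes with a larger and 16.7% with a smaller change in MEC1, so 3 of 10 is near the share of all genes. *SNHG1* rose more in MEC1, with a difference of 0.23 on the log2 scale (adjusted *P* = 0.0227). *SNHG5* had a difference of 0.23 as well (adjusted *P* = 0.0482), from 0.16 in MEC1 and -0.07 in JVM2. *SNHG7* had a difference of -0.31 (adjusted *P* = 0.0125), from -0.07 in MEC1, where all 3 2B17 libraries lay below the controls, and 0.24 in JVM2, where all 3 lay above them. With any 1 library left out, the difference of *SNHG7* ranged from -0.36 to -0.25 and stayed past the threshold, with adjusted *P* from 0.00909 to 0.049. The control of MEC1 carried an shRNA and that of JVM2 an empty vector, so the line and the kind of control cannot be told apart in these differences. The tested genes within 5 Mb of *SNHG7* had a median log2 fold change of -0.37 in MEC1 and 0.02 in JVM2. The part of these genes and of the overlapping *DIPK1B* in the difference of *SNHG7* was not tested.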

How the results depend on the processing

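The alternatives were DESeq2, a call required from DESeq2 and edgeR's exact test alike, RLE scaling, library size alone, TMM scaling set without ribosomal protein genes, hosts and TOP factors, low counts left unfiltered, a stricter filter of 10 counts in each library, a block for the replicate number, and each library left out in turn. Without a library, its group has 2. The counts of hosts that were higher held at 7 in MEC1 and 3 to 4 in JVM2 with all libraries, at 6 to 7 and 3 to 4 with 1 left out. Hosts lower in JVM2 ranged from 0 to 2 with 1 library left out, the 2 (*SNHG5* and *SNHG8*) appearing without JVM2-2B17 replicate 2. Ribosomal protein genes higher in MEC1 fell from 55 to 34 under the call rule of both tools, and ranged from 47 to 55 with 1 library left out, and those in JVM2 from 70 to 78. Hosts with a larger change in MEC1 were 1 in place of 2 under RLE scaling, library size alone, TMM without the named genes and no filter, 3 with the replicate block, and 0 to 4 with 1 library left out (4 without JVM2-2B17 replicate 2; 0 without MEC1-2B17 replicate 2, JVM2-CTRL replicate 1 or 3, or JVM2-2B17 replicate 1). The cause was not tested. Values not past the threshold changed sign with 1 library left out for *SNHG15* in MEC1 (-0.0601 to 0.0035), *SNHG5* (-0.16 to 0.0013) and *SNHG8* in JVM2 (-0.1642 to 0.0234), and the differences between lines of *GAS5* (-0.0324 to 0.1575) and *EPB41L4A-AS1* (-0.0302 to 0.1342).

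Replicate numbers did not pair the libraries: same-numbered deviations correlated at -0.14 to 0.144. With the replicate block, 7 and 4 hosts and 54 and 76 ribosomal protein genes were higher in MEC1 and JVM2, and *SNHG12* passed the interaction test (0.31, adjusted *P* = 0.0452).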
